A study of Mus musculus with 12 samples.

Results

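RNA of 8 marker genes of Schwann cells and satellite glia, the glia of peripheral ganglia and nerves, was followed in neurons sorted from the embryonic mouse spiral ganglion, which relays sound from the cochlea. The genes were Sox10, Foxd3, Egr2, Fabp7, S100b, Gfap, Mbp and Cnp, and they were found by matching the Ensembl identifiers of the deposited table of counts to these 8 symbols. Of the 25674 identifiers in the table, 7 matched, and 4 of the 7 (Sox10, Fabp7, Mbp and Cnp) had enough counts for a test between genotypes. Gfap, the intermediate filament of astrocytes and non-myelinating Schwann cells, was not analysed here. The rule itself used no measured value.

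The study compared 6 control samples with 6 samples labelled Isl1CKO, in which the transcription factor ISL1 was to be removed from neurons. Controls carried Neurod1-Cre and the Cre-dependent red reporter tdTomato at Rosa26 (genotype Neurod1Cre;Rosa26tdTOM). The other embryos carried the same Cre and reporter with both Isl1 alleles flanked by loxP sites (Neurod1Cre;Isl1loxP/loxP;Rosa26tdTOM). Each sample held 100 tdTomato-positive cells, collected by flow cytometry from both inner ears of a single embryo at stage E14.5, and embryos were of either sex on a mixed C57BL/6 and sv129 background. Cre came from a bacterial artificial chromosome transgene under Neurod1 control, so the gate kept any cell in whose history that transgene had been active. The labels give 4 litters, without a litter for each sample, so litter and genotype could not be compared.

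Peripheral glia arise from the neural crest, whereas spiral ganglion neurons arise from neuroblasts that leave the otic epithelium. SOX10 is the transcription factor that crest cells need to become glia and that Schwann cells and satellite glia keep. Schwann cell precursors migrate along the growing axons, depend on neuregulin from the axon acting through ERBB3, and later switch on EGR2 and the myelin genes. Satellite glia wrap the neuronal cell bodies. Sox10 is also transcribed in otic epithelium. RNA of these genes in a sort for neurons can come from cells of another type or from the neurons, and in bulk samples fewer cells of a type and less RNA per cell cannot be told apart.

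Fabp7 and Cnp were the most abundant of the 8 genes per length of transcript, and they are the genes whose levels followed Sox10 most closely below, so their promoters are shown for comparison. The sequences are RefSeq promoters on GRCm38.p6, 5′ to 3′ on the plus strand. They run from 250 bases before to 50 after the start site of the promoter entry, which differs from the gene start given below. Capitals mark ACAAAG, a core recognised by SOX proteins. The window of Cnp is chr11:100574689-100574988 and that of Fabp7 is chr10:57784673-57784972.
Cnp: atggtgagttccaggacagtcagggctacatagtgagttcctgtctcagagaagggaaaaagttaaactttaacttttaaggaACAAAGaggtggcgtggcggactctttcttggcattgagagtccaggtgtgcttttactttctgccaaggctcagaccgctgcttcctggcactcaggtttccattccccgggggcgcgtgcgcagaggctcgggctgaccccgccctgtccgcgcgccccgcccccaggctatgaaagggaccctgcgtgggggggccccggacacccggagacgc
Fabp7: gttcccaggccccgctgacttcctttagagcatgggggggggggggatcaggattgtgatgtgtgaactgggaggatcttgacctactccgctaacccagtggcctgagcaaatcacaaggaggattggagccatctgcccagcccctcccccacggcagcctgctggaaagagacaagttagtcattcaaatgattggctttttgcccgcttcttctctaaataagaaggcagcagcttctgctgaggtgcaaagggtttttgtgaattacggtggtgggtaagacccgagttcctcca
The Cnp window held 1 ACAAAG, beginning 167 bases before the start site of its promoter entry. The Fabp7 window held neither ACAAAG nor ACAATG on either strand. ACAAAG was present in 18.7% of 32851 promoters of this length and ACAATG in 12.6%, and 28.6% held either. GCGNGGGCG, a core recognised by EGR proteins, was in neither window and in 5.55% of all promoters. A match describes the letters only. Promoter windows were read for 6 of the 8 genes. Those of Sox10 and Mbp were not read here, which does not show that RefSeq lacks them.

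Library totals ran from 11895603 to 13857480 counts, and 14813 genes were tested. Levels are given as CPM, read counts normalised for the size of each library, and 3 counts corresponded to between 0.219 and 0.25 CPM. The targeted gene, Isl1, lay between 1170 and 1780 CPM in controls and between 1050 and 1590 CPM in the samples labelled Isl1CKO, so its whole-gene count overlapped between the genotypes (log2 fold change -0.15 ± 0.107, SE, edgeR adjusted p = 0.46). The labels do not give the exons between the loxP sites, and a count over the whole gene cannot check the deletion. Libraries are therefore named by their labels. Neuronal RNA was abundant in all 12: Tubb3, the neuronal tubulin, averaged 1910 CPM per kb of exon. A list of 12 neuronal markers summed to 15700 to 17900 CPM in controls and 13200 to 15600 CPM in the samples labelled Isl1CKO. Of these 12 markers, 4 were lower and 2 higher in the samples labelled Isl1CKO at an edgeR adjusted p under 0.05. Of all tested genes, 10.2% passed that threshold. Isl1CKO-labelled libraries 2, 3 and 5 each held both Xist and Y-linked RNA, whereas the other 9 held 1 of the 2.

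**Figure D1:**
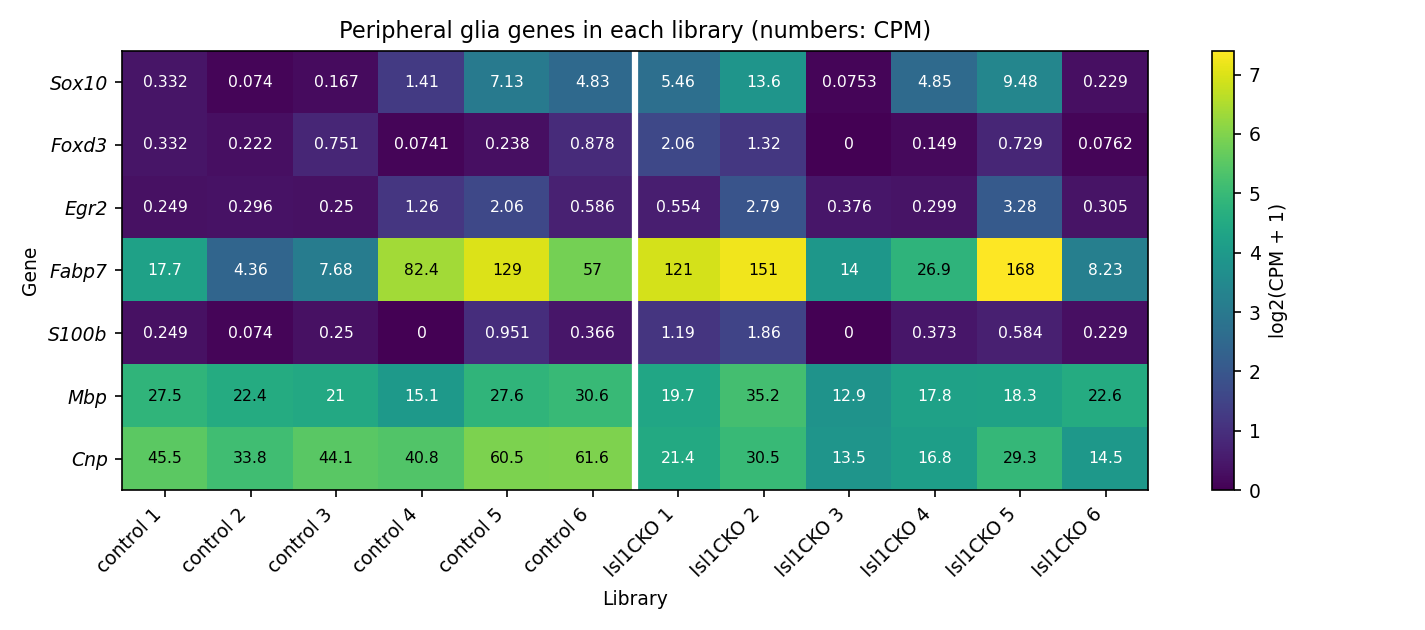
Level of the 7 measured genes (rows) in each of the 12 libraries (columns, controls first), coloured by log2(CPM + 1) with the CPM printed in each cell. Fabp7, Cnp and Mbp were present in every library, whereas Sox10 ranged from 0.074 to 13.6 CPM and was under 0.5 CPM in 5 libraries.

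Among the 3 transcription factors, Sox10 reached the highest levels and exceeded 3 counts in 8 of 12 libraries. Sox10 (ENSMUSG00000033006; chromosome 15, 79154908 to 79165240, minus strand, GRCm38) was at 0.332, 0.074, 0.167, 1.41, 7.13 and 4.83 CPM in controls 1 to 6. It was at 5.46, 13.6, 0.0753, 4.85, 9.48 and 0.229 CPM in Isl1CKO-labelled libraries 1 to 6. The 5 libraries under 0.5 CPM, controls 1, 2 and 3 and Isl1CKO-labelled 3 and 6, held between 1 and 4 counts each. A further 6 libraries were above 4 CPM, and control 4 lay between. Low and high libraries occurred in both genotypes. The means were 2.32 ± 2.96 CPM in controls and 5.61 ± 5.27 CPM in the libraries labelled Isl1CKO (SD, n = 6 each), and this difference did not exceed the spread between libraries (log2 fold change 1.27 ± 1.07, SE, edgeR adjusted p = 0.529). The log2 fold change was 2.02 without control 5, 0.78 without Isl1CKO-labelled library 2 and 0.59 without the 3 libraries holding both sexes' RNA, and it was not called in any of these.

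Foxd3 and Egr2 were low, at no more than 3.28 CPM in any library. Foxd3 (ENSMUSG00000067261; chromosome 4, 99656299 to 99658622, plus strand), a forkhead factor of neural crest and Schwann cell precursors, was at 0.332, 0.222, 0.751, 0.0741, 0.238 and 0.878 CPM in controls 1 to 6. It was at 2.06, 1.32, 0, 0.149, 0.729 and 0.0762 CPM in the libraries labelled Isl1CKO. Foxd3 exceeded 3 counts in 6 of 12 libraries. Egr2 (ENSMUSG00000037868; chromosome 10, 67535475 to 67542188, plus strand), which drives Schwann cells into myelination, was at 0.249, 0.296, 0.25, 1.26, 2.06 and 0.586 CPM in controls. It was at 0.554, 2.79, 0.376, 0.299, 3.28 and 0.305 CPM in the libraries labelled Isl1CKO and exceeded 3 counts in 10 libraries. Its 3 highest libraries, Isl1CKO-labelled 5 and 2 and control 5, were also the 3 with the most Sox10. Neither gene passed the filter on low counts, and genotypes overlapped for both.

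Of the cytosolic glial proteins, Fabp7 was abundant in some libraries and S100b was near its floor. Fabp7 (ENSMUSG00000019874; chromosome 10, 57784881 to 57788450, plus strand), the brain fatty acid binding protein of radial glia, Schwann cell precursors and satellite glia, was at 17.7, 4.36, 7.68, 82.4, 129 and 57 CPM in controls 1 to 6. It was at 121, 151, 14, 26.9, 168 and 8.23 CPM in Isl1CKO-labelled libraries 1 to 6, 38.4-fold from the lowest library to the highest. The 5 libraries lowest in Fabp7, all at or under 17.7 CPM, were the 5 under 0.5 CPM of Sox10. The mean was 49.7 ± 49.4 CPM in controls and 81.3 ± 73 CPM in the libraries labelled Isl1CKO (SD, n = 6 each). That difference was within the spread between libraries (log2 fold change 0.71 ± 0.92, SE, edgeR adjusted p = 0.702). It was 0.06 without the 3 libraries holding both sexes' RNA. S100b (ENSMUSG00000033208; chromosome 10, 76253853 to 76261159, plus strand), a calcium-binding protein of glia, was at 0.249, 0.074, 0.25, 0, 0.951 and 0.366 CPM in controls. It was at 1.19, 1.86, 0, 0.373, 0.584 and 0.229 CPM in the libraries labelled Isl1CKO. S100b exceeded 3 counts in 6 libraries, and the genotypes overlapped.

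Of the pair of genes named for myelin, Cnp was lower in the libraries labelled Isl1CKO and Mbp did not pass the test. Cnp (ENSMUSG00000006782; chromosome 11, 100574904 to 100591729, plus strand), a cyclic nucleotide phosphodiesterase of myelin-forming cells, was at 45.5, 33.8, 44.1, 40.8, 60.5 and 61.6 CPM in controls 1 to 6. It was at 21.4, 30.5, 13.5, 16.8, 29.3 and 14.48 CPM in Isl1CKO-labelled libraries 1 to 6. Every control lay above every library labelled Isl1CKO. Cnp fell from 47.7 ± 11.1 to 21 ± 7.43 CPM (SD, n = 6 each; log2 fold change -1.18 ± 0.23, SE, edgeR adjusted p = 0.00344). Cnp shares 154 bases of exon, 4.23% of its own, with Dnajc7 on the opposite strand, and whether strand was used in counting is not given in the sources used here. Dnajc7, named here because of this overlap, was at 224 ± 20.8 CPM in controls and 231 ± 11.5 CPM in the libraries labelled Isl1CKO (log2 fold change 0.05, edgeR adjusted p = 0.752).

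Mbp (ENSMUSG00000041607; chromosome 18, 82475146 to 82585637, plus strand), myelin basic protein, whose gene also gives golli transcripts outside myelin, was at 27.5, 22.4, 21, 15.1, 27.6 and 30.6 CPM in controls. It was at 19.7, 35.2, 12.9, 17.8, 18.3 and 22.6 CPM in the libraries labelled Isl1CKO. The genotypes overlapped, and the highest library was 2.72-fold above the lowest. The means were 24 ± 5.64 and 21.1 ± 7.57 CPM (SD, n = 6 each; log2 fold change -0.19 ± 0.235, SE, edgeR adjusted p = 0.686). Counts per gene do not tell myelin from golli transcripts.

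**Figure D2:**
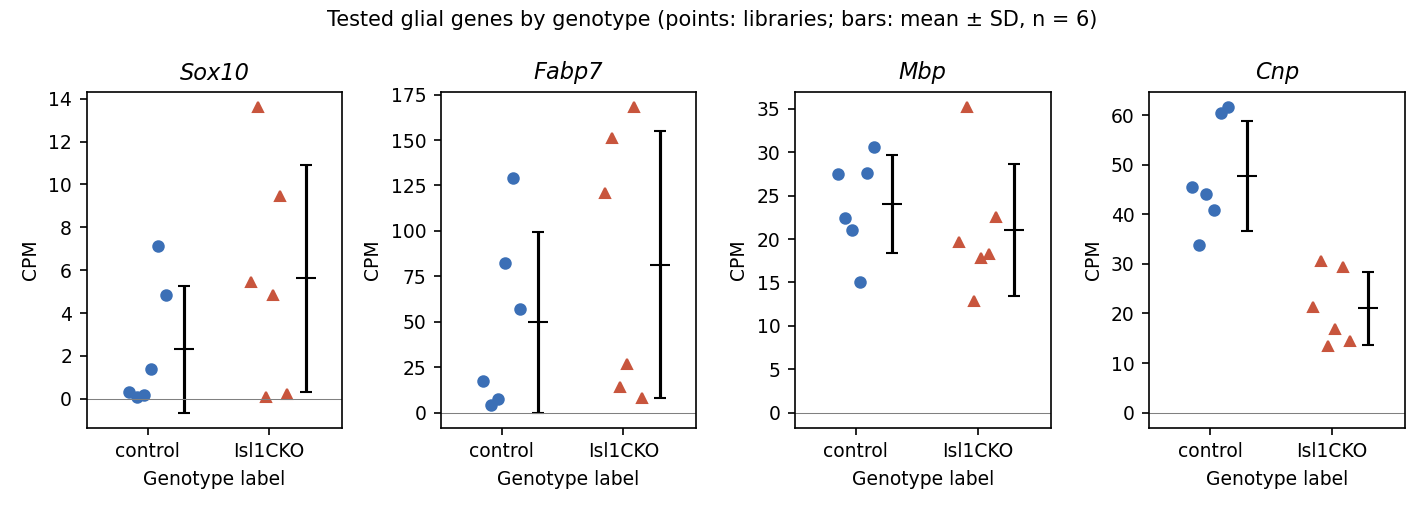
CPM of the 4 tested genes in the 6 control and 6 Isl1CKO-labelled libraries; points are libraries, and the bar and whiskers are the mean and SD. Cnp does not overlap between the genotypes, whereas Sox10, Fabp7 and Mbp do.

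Of the 4 tested genes, 1 was called, Cnp, at an adjusted p under 0.05, where 10.2% of all tested genes were called, 5.19% as lower and 5.01% as higher in the libraries labelled Isl1CKO. Groups that did not overlap were seen for 6.78% of tested genes. Fitted without the filter on low counts, Foxd3 gave a log2 fold change of 0.78 ± 0.957, Egr2 of 0.68 ± 0.813 and S100b of 1.13 ± 0.987 (SE, edgeR adjusted p = 0.748, 0.74 and 0.618). The standard errors of Sox10, Foxd3, Egr2, Fabp7 and S100b, between 0.813 and 1.07 on the log2 scale, limited the difference that could be detected, and these p-values do not show that the genotypes were alike.

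Levels of different genes were compared per kb of exon, as a mean over the 12 libraries. Fabp7 stood at 52.4 CPM per kb, Cnp at 9.44, Mbp at 2.66, Sox10 at 1.3, S100b at 0.344, Egr2 at 0.302 and Foxd3 at 0.245. Neighbours in this order overlapped in their ranges over libraries. Isl1, for scale, was at 370 CPM per kb.

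Sox10 and Fabp7 varied between libraries of 1 genotype far more than genes of like abundance, whereas Cnp and Mbp did not. The biological coefficient of variation is the relative SD between libraries of a genotype beyond counting noise. It was 1.22 for Sox10 against 0.65 for the trend at its abundance, and 1.02 for Fabp7 against 0.21. These values exceeded those of 98.6% and 96.3% of tested genes. Mbp, at 0.3 against 0.32, and Cnp, at 0.28 against 0.27, lay on the trend.

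**Figure D3:**
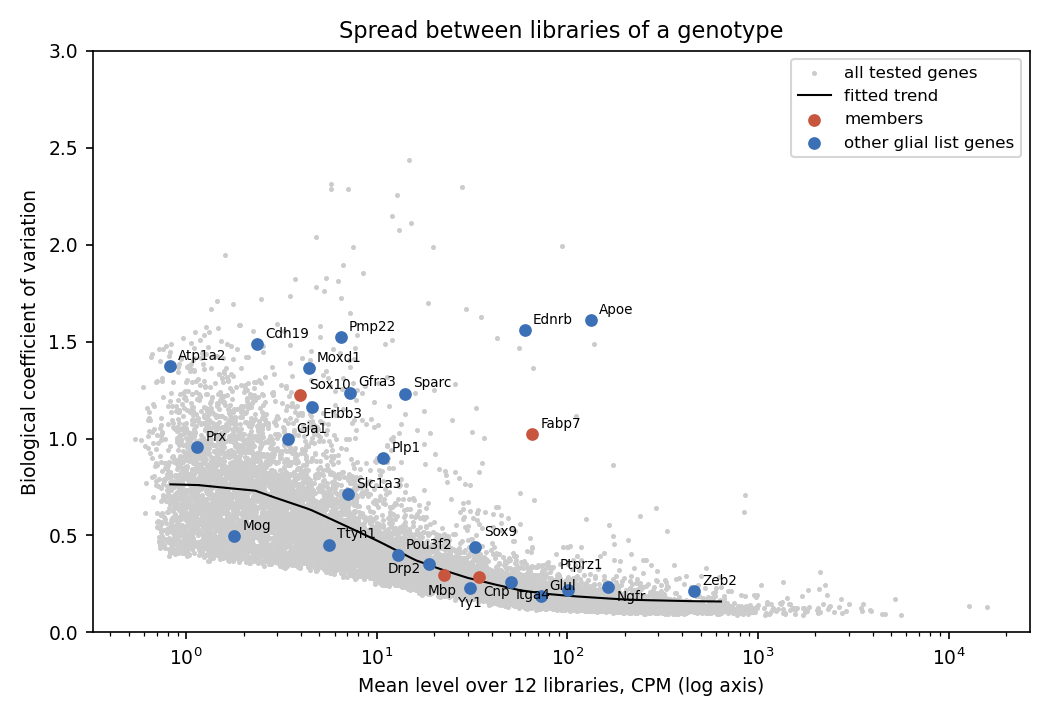
Biological coefficient of variation within genotypes against mean CPM (log axis) for all tested genes (grey), the tested members (red) and the other glial list genes (blue), with the trend over abundance as a line. Sox10 (1.22) and Fabp7 (1.02) lie far above the trend, Cnp (0.28) and Mbp (0.3) on it.

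Levels of Fabp7, Cnp, S100b and Egr2 followed that of Sox10 across libraries within genotypes. For each of 6 genes, log2(CPM + 1) was correlated with that of Sox10 over the 12 libraries after the mean of each genotype was subtracted, with permutation of libraries within genotypes and adjustment over the 6 relations. Fabp7 followed Sox10 with Pearson's r = 0.89 (permutation p = 0.00033, adjusted 0.00198) and Spearman's rho = 0.85 (permutation p = 0.00134, adjusted 0.00268). Without the 2 libraries farthest from the median of Sox10, Isl1CKO-labelled 3 and 6, r was 0.86, and it was 0.88 within controls and 0.92 within the libraries labelled Isl1CKO. Libraries were not spread evenly in Sox10, with 5 under 0.5 CPM and 7 over 1 CPM, so a pooled r also holds the step between these sets. Over the 7 libraries above 1 CPM alone, r for Fabp7 was 0.49.

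Cnp followed Sox10 as closely, although its mean differed between genotypes. Pearson's r was 0.9 (permutation p = 0.00069, adjusted 0.00207) and Spearman's rho 0.88 (permutation p = 0.00055, adjusted 0.00171). It was 0.85 without the 2 farthest libraries, 0.87 within controls, 0.92 within the libraries labelled Isl1CKO and 0.9 over the 7 libraries above 1 CPM. With genotype means left in, r was 0.19 (adjusted permutation p = 0.551). In the libraries under 0.5 CPM of Sox10, Cnp still ran from 33.8 to 45.5 CPM in 3 controls and from 13.5 to 14.48 CPM in 2 libraries labelled Isl1CKO. In the libraries above 1 CPM it ran from 40.8 to 61.6 CPM in 3 controls and from 16.8 to 30.5 CPM in 4 libraries labelled Isl1CKO. With the level of Sox10 as a covariate, an alternative added after the data were seen, the log2 fold change of Cnp was -1.46 ± 0.15 (SE, edgeR adjusted p = 2.87e-05). Without the covariate it was -1.18 ± 0.23 (SE). The part of glial RNA in the difference of Cnp between genotypes was not tested.

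S100b and Egr2 also passed, on few counts, with a smaller Pearson's r than Fabp7 and Cnp. For S100b, Pearson's r with Sox10 was 0.79 (permutation p = 0.00565, adjusted 0.0113) and Spearman's rho 0.89 (permutation p = 0.00057, adjusted 0.00171); r was 0.68 without the 2 farthest libraries. For Egr2, r was 0.76 (permutation p = 0.0186, adjusted 0.0279) and rho 0.73 (permutation p = 0.0139, adjusted 0.0208), with r at 0.72 without the 2 farthest. Spearman's rho of S100b was as high as that of Cnp. Foxd3 (r = 0.54, rho = 0.63, adjusted permutation p = 0.125 and 0.0583) and Mbp (r = 0.5, rho = 0.56, adjusted permutation p = 0.125 and 0.0739) did not pass. Over the 7 libraries above 1 CPM alone, r was 0.84 for Mbp, 0.76 for S100b, 0.61 for Egr2 and 0.3 for Foxd3, so the order of the genes there differed from that over all 12 libraries, with Mbp above Fabp7. So 4 of 6 relations passed, and 2 did, Fabp7 and Cnp, without control 5 or without the 3 libraries holding both sexes' RNA. Without control 5, r was 0.74 for S100b and 0.7 for Egr2 (adjusted permutation p = 0.066 and 0.0902).

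**Figure D4:**
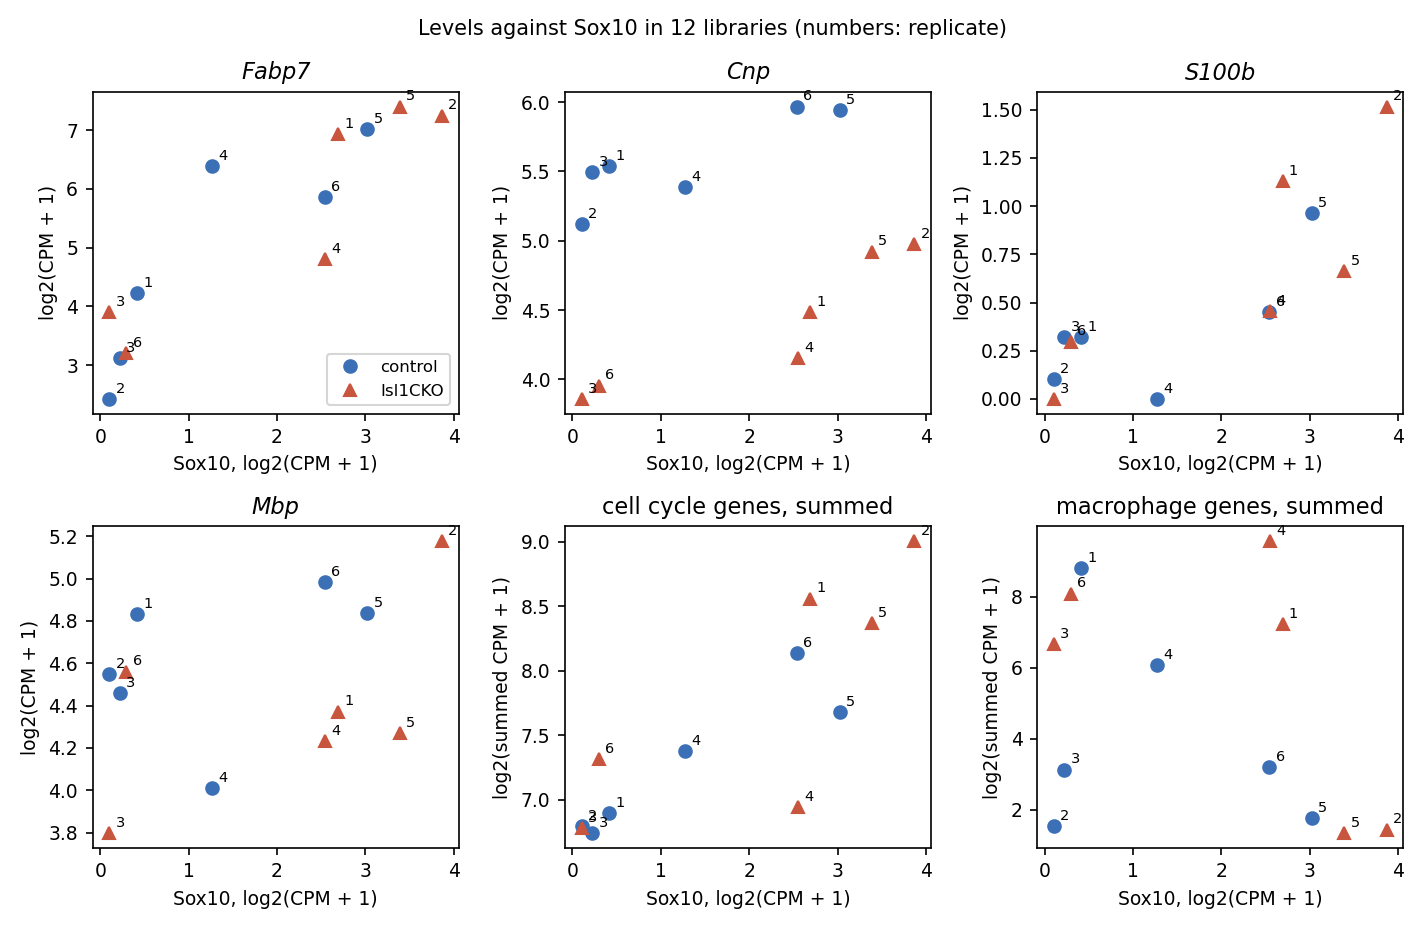
log2(CPM + 1) of Fabp7, Cnp, S100b and Mbp and of the summed cell cycle and macrophage markers against that of Sox10, with controls and Isl1CKO-labelled libraries in different colours. Fabp7 lies on 1 rising band for both genotypes, whereas Cnp forms a separate rising band for each.

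As a description over the same 12 libraries and without a test, pairs among the other genes ranged from r = 0.25 for Foxd3 with Egr2 to 0.83 for Fabp7 with Cnp. Egr2 and Fabp7 had r = 0.81, S100b and Cnp 0.81, Egr2 and Cnp 0.78, and S100b and Mbp 0.76. Mbp and Fabp7 had r = 0.26. These pairs share libraries and depth.

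Ratios of glial RNAs to Sox10 were read in the 7 libraries above 1 CPM of Sox10, as a description without a test. Fabp7 gave 58.5 counts per count of Sox10 in control 4 (95% exact interval 37.3 to 97.6) and 5.54 in Isl1CKO-labelled library 4 (4.24 to 7.33). In the other 5 libraries it gave between 11.1 and 22.1. Erbb3, the neuregulin co-receptor, gave 3.74 per count of Sox10 in control 4 (2.23 to 6.57), 0.3 in control 5 (0.188 to 0.466) and between 1.06 and 1.39 in the other 5. Ednrb, the endothelin receptor of crest and its glia, gave between 7.47 and 18.6 per count of Sox10 over the 7 libraries. The intervals cover counting error only, so they do not show whether the proportions differed between libraries beyond other error.

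A wider list of 39 glial genes was read beside the 8. It has 15 genes of neural crest and Schwann cell precursors, 14 of the myelin programme and 10 of satellite glia. In all 38 had a row, 24 were tested, 3 fell and 4 rose in the libraries labelled Isl1CKO, and 17 did not pass, so 29.2% were called against the 10.2% of all tested genes given above. Their median log2 fold change was 0.89, against 0.004 for all tested genes.

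Among 10 tested crest and precursor genes, 2 fell and 2 rose, so 40% were called against 10.2% of all tested genes. Ngfr, the p75 neurotrophin receptor, which neurons and immature Schwann cells make, fell from 221 ± 42.1 to 105 ± 30.8 CPM (SD, n = 6 each; log2 fold change -1.07, edgeR adjusted p = 0.00177). Sox9, a factor of crest and otic progenitors, fell from 53.2 ± 13.5 to 12.7 ± 9.55 CPM (log2 fold change -2.07, edgeR adjusted p = 0.00228). Itga4, an integrin subunit, rose from 25.6 ± 8.51 to 75.6 ± 16.3 CPM (log2 fold change 1.56, edgeR adjusted p = 0.000195). Zeb2, a zinc-finger factor of crest, Schwann cells and neurons, rose from 334 ± 85.2 to 593 ± 122 CPM (log2 fold change 0.83, edgeR adjusted p = 0.00455), with overlap between the genotypes. These are the genes of the list that moved, and none is restricted to glia.

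Of 6 tested genes of the myelin programme, 1 fell and 1 rose, so 33.3% were called against 10.2% of all tested genes. Pou3f2, a POU factor of promyelinating Schwann cells and of neurons, fell from 19.6 ± 6.86 to 6.12 ± 2.66 CPM (log2 fold change -1.68, edgeR adjusted p = 0.00335). Drp2, a dystrophin-related protein of myelinating Schwann cells, rose from 12.9 ± 4.41 to 24.9 ± 8.85 CPM, with overlap (log2 fold change 0.95, edgeR adjusted p = 0.0446). The r of Drp2 with Sox10 was 0.11. Yy1, a broadly made zinc-finger factor, was at 33.7 ± 9.11 and 28.1 ± 4.47 CPM (edgeR adjusted p = 0.407).

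Of 8 tested satellite glia genes, 1 rose and none fell, so 12.5% were called, close to the 10.2% of all tested genes. Ptprz1, a receptor phosphatase of glial precursors, rose from 19.6 ± 4.45 to 182 ± 45.7 CPM (SD, n = 6 each; log2 fold change 3.22 ± 0.192, SE, edgeR adjusted p = 8.33e-08), with no overlap. Ptprz1 was at 163, 153, 124, 215, 252 and 187 CPM in Isl1CKO-labelled libraries 1 to 6, of which 3 and 6 held Sox10 under 0.5 CPM. Its r with Sox10 was 0.6, and the cells that gave this RNA were not tested. Glul, glutamine synthetase, was at 80 ± 14.8 and 65.2 ± 11.3 CPM (edgeR adjusted p = 0.241). Apoe, a lipoprotein of satellite glia and also of macrophages, ran from 1.03 to 444 CPM in controls and from 8.77 to 673 CPM in the libraries labelled Isl1CKO (edgeR adjusted p = 0.737). Its r with Sox10 was -0.38.

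No tested gene of the wider list was both called between genotypes and among those that followed Sox10 most closely. The 7 called genes of the wider list had r with Sox10 between 0.08 (Zeb2) and 0.6 (Ptprz1). The 3 tested genes with r of at least 0.8, Ednrb, Erbb3 and Sparc, were not called, where 0.398% of tested genes reached that r. With 10.2% of all tested genes called, the lack of a call among 3 genes is no result about them. Their biological coefficients of variation, 1.56, 1.16 and 1.23, also limited the difference that could be detected. Sox2, a factor of glial and otic progenitors, had r = 0.86 but did not pass the filter on low counts, with at most 3.96 CPM in any library. Sparc, Erbb3 and Sox2 are named after their values were seen. Ednrb had r = 0.91. It was at 21.1, 0.222, 0.0834, 13.3, 53.3 and 48.5 CPM in controls and at 63.6, 253, 2.56, 88.6, 173 and 0.0762 CPM in the libraries labelled Isl1CKO. Its log2 fold change was 2.09 (edgeR adjusted p = 0.387), with a biological coefficient of variation of 1.56 against 0.21 for the trend. Erbb3 had r = 0.85 and a log2 fold change of 1.14, and Sparc, a matrix protein, r = 0.81 and 1.08 (edgeR adjusted p = 0.543 and 0.593).

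**Figure D5:**
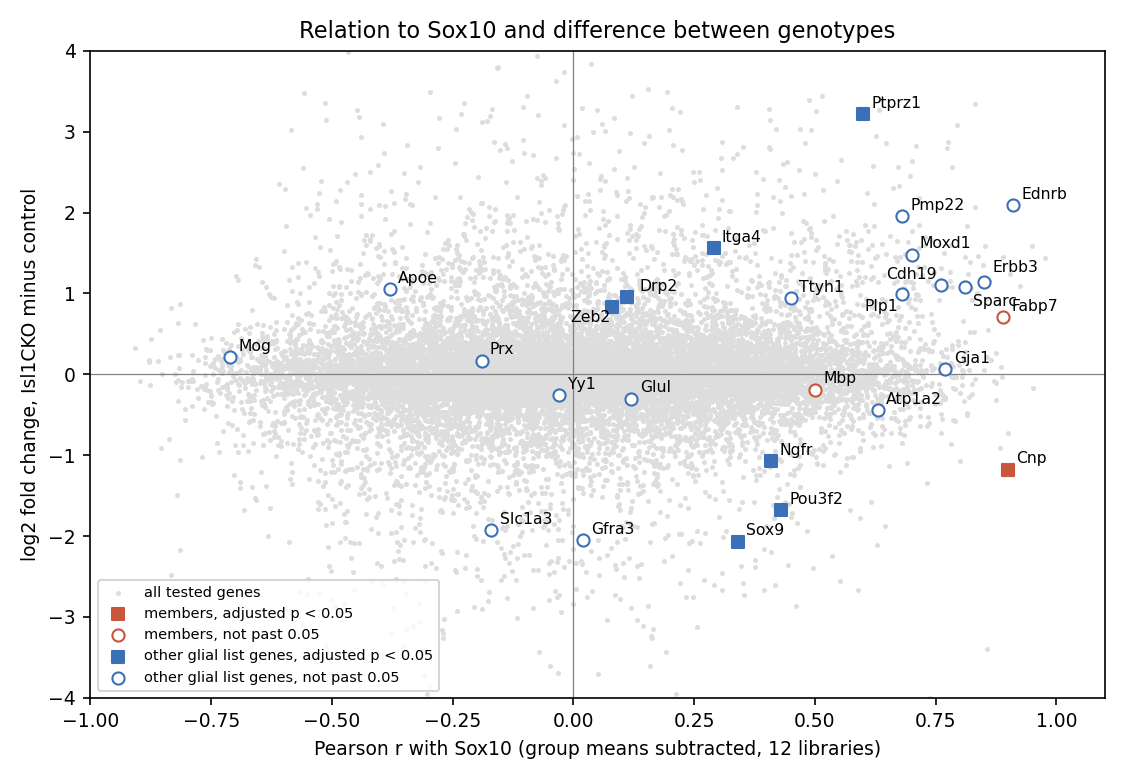
Pearson's r with Sox10 within genotypes (horizontal) against the log2 fold change between genotypes (vertical) for tested genes (grey, those beyond 4 either way not drawn), members (red) and other glial list genes (blue); filled squares have an adjusted p under 0.05. Cnp (r = 0.9, log2 fold change -1.18) is the filled square at the far right, and Ednrb, Erbb3, Sparc and Fabp7 are open at high r.

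Markers of dividing cells had mostly positive correlations with Sox10, and macrophage markers had negative ones. The 12 cell cycle genes had a median r of 0.71 with Sox10 (from -0.06 for Pcna to 0.82). Between genotypes, edgeR called 0 of the 12, where 10.2% of all tested genes were called. Their median log2 fold change was 1.043, with biological coefficients of variation from 0.16 (Pcna) to 1.51 (Mki67). The lack of a call therefore does not show that the genotypes were alike. The summed level of these 12 genes was 106 to 158 CPM in the 5 libraries under 0.5 CPM of Sox10 and 122 to 513 CPM in the 7 above 1 CPM. By genotype it was 106 to 280 CPM in controls and 109 to 513 CPM in the libraries labelled Isl1CKO. Of the 7 libraries above 1 CPM of Sox10, controls 4, 5 and 6 summed to 165, 204 and 280 CPM. Isl1CKO-labelled libraries 1, 2, 4 and 5 summed to 376, 513, 122 and 329 CPM. Top2a, the topoisomerase of dividing cells, ran from 1.92 to 47.1 CPM in controls and from 1.12 to 130 CPM in the libraries labelled Isl1CKO. The 10 tested macrophage genes, led by the complement genes C1qb and C1qc, had a median r of -0.43 (from -0.54 to -0.33), and their 12 genes summed to 1.92 to 449 CPM in controls and 1.53 to 760 CPM in the others. The 4 tested otic epithelium markers had a median r of 0.51, the 4 tested mesenchyme markers 0.2, the 12 neuronal markers -0.2 and all tested genes 0. Isl1CKO-labelled libraries 2 and 5, which held both sexes' RNA, had the most Sox10, and library 3, which did too, had the least of its genotype. The part of dividing cells, of other cell types or of RNA from more than 1 embryo in the levels of the glial genes was not tested.

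Outside all lists, the 10 genes whose pattern over the 12 libraries was most like that of Sox10, among 10808 genes with a mean of at least 5 CPM, had r between 0.86 and 0.89. They were Postn, Rbm10, Rhog, Prc1, Col11a1, A130014A01Rik, Map3k4, Trpc4ap, Tgm2 and Dbi. Postn, a matricellular protein, ran from 0.074 to 32.1 CPM in controls and from 0 to 72.5 CPM in the libraries labelled Isl1CKO. Prc1, a protein of the mitotic spindle midzone, ran from 4.9 to 16.5 and from 2.33 to 35.4 CPM. Among those of the 10 that exceeded 3 counts in every library, the range of levels differed widely. The highest library was 1.44-fold above the lowest for Rbm10, 1.65-fold for Trpc4ap, 1.72-fold for Map3k4 and 37.7-fold for Col11a1. A high r with Sox10 was thus also reached by genes whose levels varied little. Of the 10, 1 was called between genotypes: Tgm2, a transglutaminase, fell from 11.1 ± 5.16 to 1.05 ± 0.678 CPM (SD, n = 6 each; log2 fold change -3.4, edgeR adjusted p = 0.000455), with no overlap. Among all tested genes, 10.2% were called and 6.78% had groups that did not overlap. Tgm2 was low in the libraries labelled Isl1CKO, at 0.152 to 1.98 CPM. Its r with Sox10 was 0.87 within controls and 0.86 within the others. High r within genotypes follows from how the 10 were chosen.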

How the data were processed

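The authors deposited whole-number counts per Ensembl gene for 12 libraries, not normalized, of 25674 identifiers with at least 10 counts in all. The submitters' processing notes name cutadapt 1.18, Bowtie 1.2.2, STAR 2.7.0c, featureCounts and GRCm38.p6; their roles, the use of strand and the annotation are not given in the sources used here. Libraries were made with a low-input kit and read on a NextSeq sequencer, per the labels. A label calls the samples technical replicates and the design text biological ones, so p-values measure the spread between these samples.

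Genotypes were compared with edgeR 4.0.16 in R 4.3.3 (filterByExpr, minimum count 10; TMM; robust quasi-likelihood F-test; Benjamini-Hochberg adjustment over 14813 genes, threshold 0.05). The SE is the absolute log2 fold change over the square root of F. CPM is TMM-scaled. Correlations used log2(CPM + 1) centred on the genotype mean and 100000 permutations within genotypes, 2-sided. A floor of 3 counts covers counting error only, since PCR reads without molecular identifiers are not independent molecules. Exon lengths, coordinates and overlaps are from GENCODE M21 on GRCm38; the counting may have used other gene models. The genotype test was run on simulated counts first.

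Named were the 8 members, Isl1, every gene of the wider glial list past the threshold, the 3 most abundant of each of its groups, the 2 most abundant of each other marker list, and the 10 unlisted genes most like Sox10. The members and lists were chosen with earlier results of these data known. Alternatives were other scalings, filters, pseudocounts and tests (DESeq2 1.42.0, limma 3.58.1), covariates, the replicate number as a block and leaving libraries out.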

Additional observations from a re-analysis of the deposited data

How the results depend on the processing

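Cnp was lower and the only called gene of the 8 under all 23 alternatives (log2 fold change -1.46 to -1.08, adjusted p 1e-05 to 0.0114), which include each library left out. Fabp7 and Mbp were called in none of them, and Sox10 in none of the 22 that tested it. With its own level as the covariate, the log2 fold change of Sox10 was -0.36, a fit that cannot test this gene. In the other fits it ran from 0.59 to 2.02 (without control 5). The log2 fold change of Fabp7 ran from -0.42 to 1.25 and that of Mbp from -0.4 to -0.08. Without the 3 libraries holding both sexes' RNA, Sox10 was at 0.59 and Fabp7 at 0.06. Fabp7 turned negative with the Sox10 level (-0.42) or the cell cycle level (-0.2) as a covariate. Between 6 and 8 genes of the wider glial list were called. Without the 3 libraries holding both sexes' RNA, 767 genes were called in place of 1511, with fewer samples, and 2 relations to Sox10 passed in place of 4, with S100b at r = 0.71 and Egr2 at 0.69 (adjusted permutation p = 0.0868 for both). The cause was not tested. Leaving out each library in turn left from 2 (without control 5) to 4 relations, with S100b at 0.74 and Egr2 at 0.7 without control 5. Whether the replicate numbers pair the samples is not given and was not tested. Correlations of same-numbered deviations ran from -0.056 to 0.155, and 4 of 12 libraries correlated best with their own number. With the replicate number as a block, 1450 genes, 1 of the 8 and 6 of the wider list were called. DESeq2 called 2100 genes. At 3 counts as the floor, Foxd3 and S100b exceeded it in 6 libraries each.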

Other observations

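A pair of Schwann cell genes, named after their values were seen, had RNA in few libraries. Dhh, the hedgehog ligand that Schwann cells send to the perineurium, was at 4.27 and 5.18 CPM in Isl1CKO-labelled libraries 2 and 5 and at most 0.713 CPM in the other 10. Mal, a myelin proteolipid, was at 10.4 and 2.99 CPM in the same libraries, at 2.09 CPM in Isl1CKO-labelled library 4 and at most 1.02 CPM elsewhere. Isl1CKO-labelled libraries 2 and 5 are among the 3 that held both sexes' RNA. Neither gene passed the filter on low counts.

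Of the most abundant markers of other tissues, Tbx18, a T-box factor of otic mesenchyme, rose from 1.09 ± 1.45 to 39.5 ± 10 CPM (SD, n = 6 each; log2 fold change 5.18, edgeR adjusted p = 0.000349), and its r with Sox10 was -0.03. Pou3f4, also of that mesenchyme, was at 52.9 ± 16.4 and 27.4 ± 13.4 CPM (edgeR adjusted p = 0.143). Jag1 and Fbxo2, of otic epithelium, had r with Sox10 of 0.47 and 0.62 (edgeR adjusted p between genotypes 0.918 and 0.0691). Kit was at 5.01 ± 5.65 and 11.3 ± 3.97 CPM, and Tyr, the pigment enzyme, did not exceed 0.74 CPM. The endothelial genes Kdr and Pecam1 did not exceed 1.88 CPM, except Kdr at 4.89 and 27.7 CPM in Isl1CKO-labelled libraries 2 and 3. Of the red cell genes, Alas2 did not exceed 5.87 CPM and Hbb-y 1.19 CPM. Stmn2, a neuronal microtubule protein, stood among the most abundant neuronal markers beside Tubb3.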
